A study of Mus musculus with 7 samples.

Results

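Fos-bound regions that lie inside protein-coding genes shorter than 200 kb were described in the mouse hippocampus after kainic acid. They were selected on the kainic acid peak lists: overlapping peaks of the 3 lists were merged, and a region on chr1 to chr19 was kept where at least 2 lists held a peak. Of 26649 such regions, 8941 (33.6%) had their median summit inside protein-coding spans that were all shorter than 200 kb and more than 1 kb from either end of any protein-coding gene. All mice were wild-type C57BL/6J, aged 2 months, and the tissue was whole hippocampus. The treated group (3 libraries) received kainic acid, a glutamate receptor agonist that provokes seizures, as 2 injections of 10 mg/kg given 30 min apart; mice that reached seizure level 4 were taken 1 hour after the first injection. The control group (3 libraries) received saline. How many animals went into a library is not stated in the labels, so the spread between libraries may be technical. The tissue mixes neurons, glia and vessels, so binding in few cells and weak binding in many cannot be told apart.

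Fos is a leucine zipper protein that joins a Jun partner to form AP-1, a transcription factor that reads the short palindromic motif TGANTCA. Neurons make Fos within minutes of strong firing, and most of the sites it occupies in brain are distal enhancers, many of them in introns or between genes. A peak inside a gene can lie in an intron, in an exon or at an internal start. The gene table used gives the outer limits of each gene and no exons, so exons and introns were not separated here, and a region is named by the gene around it, which need not be the gene it acts on.

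A few interior regions sat on an internal transcription start, where RefSeq gives the bases, and these show the letters under the summits. The summits of 64 of the 8941 regions (0.716%) fell within 70 of the 300-base windows that RefSeq lists around transcript starts (250 bases before the start and 50 after). Of these windows, 46 belonged to the gene that holds the region and 24 to a long non-coding RNA gene that overlaps it. The 7 upstream sequences that follow come from starts of the surrounding gene, in regions called in all 3 lists. They were chosen after their values were seen: the first 6 have the best rank of fold and stand in that order, and Bdnf was added because it is a classic activity-regulated gene. Each is the 250 bases before a listed start, 5′ to 3′ on the strand of the gene in GRCm38.p6, with TGANTCA or the cAMP response element TGACGTCA in capitals.
Pacsin2: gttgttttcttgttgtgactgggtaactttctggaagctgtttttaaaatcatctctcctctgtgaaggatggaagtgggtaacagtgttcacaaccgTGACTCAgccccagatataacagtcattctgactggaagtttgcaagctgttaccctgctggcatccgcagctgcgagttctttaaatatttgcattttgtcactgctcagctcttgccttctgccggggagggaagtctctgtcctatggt
Csrnp1: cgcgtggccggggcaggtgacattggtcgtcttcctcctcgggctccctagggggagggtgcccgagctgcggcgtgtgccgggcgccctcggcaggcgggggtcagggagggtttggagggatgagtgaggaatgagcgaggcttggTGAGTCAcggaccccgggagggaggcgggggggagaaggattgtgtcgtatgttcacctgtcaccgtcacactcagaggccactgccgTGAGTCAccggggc
Lmbrd1: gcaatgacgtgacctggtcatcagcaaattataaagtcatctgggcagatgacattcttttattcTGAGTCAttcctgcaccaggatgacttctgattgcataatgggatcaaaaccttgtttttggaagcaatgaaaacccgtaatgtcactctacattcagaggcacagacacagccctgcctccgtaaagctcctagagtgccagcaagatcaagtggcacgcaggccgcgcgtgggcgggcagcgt
Lmna: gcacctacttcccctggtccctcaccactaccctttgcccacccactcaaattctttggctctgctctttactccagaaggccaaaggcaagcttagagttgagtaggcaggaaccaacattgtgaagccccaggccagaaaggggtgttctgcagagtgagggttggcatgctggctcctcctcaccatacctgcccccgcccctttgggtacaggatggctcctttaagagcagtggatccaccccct
Clcn3: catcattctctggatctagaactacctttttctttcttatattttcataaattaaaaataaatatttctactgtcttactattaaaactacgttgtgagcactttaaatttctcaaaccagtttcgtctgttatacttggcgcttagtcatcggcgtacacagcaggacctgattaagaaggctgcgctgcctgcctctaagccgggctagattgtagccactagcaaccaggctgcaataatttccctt
Rcan1: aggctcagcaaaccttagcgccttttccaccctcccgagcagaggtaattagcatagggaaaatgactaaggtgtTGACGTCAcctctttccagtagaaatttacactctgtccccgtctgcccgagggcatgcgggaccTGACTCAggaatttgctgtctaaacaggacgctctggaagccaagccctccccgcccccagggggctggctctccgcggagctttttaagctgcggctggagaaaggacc
Bdnf: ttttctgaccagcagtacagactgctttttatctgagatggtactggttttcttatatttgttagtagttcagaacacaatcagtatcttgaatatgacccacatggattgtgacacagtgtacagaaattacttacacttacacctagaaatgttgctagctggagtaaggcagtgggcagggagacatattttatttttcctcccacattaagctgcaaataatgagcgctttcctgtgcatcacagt

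The Pacsin2 sequence (chr15:83447881-83448130, minus strand) holds 1 AP-1 motif, whose first base lies 152 bases before the start, and the region's summit lay 106 bases before the start. Pacsin2 encodes a membrane-bending protein of endocytosis, and the region had a fold over local background of 8.57, 17.4 and 8.96 in kainic acid libraries 1, 2 and 3. The Csrnp1 sequence (chr9:119983024-119983273, minus strand) holds 2 copies, at 102 and 14 bases before the start, on either side of the summit at 59 bases, and the folds were 6.74, 16.7 and 11.1. Csrnp1 encodes a nuclear protein of the immediate early class. The Lmbrd1 sequence (chr1:24678294-24678543, plus strand), from a gene for a lysosomal protein of cobalamin transport, holds 1 copy at 185 bases before the start, close to the summit at 174 bases, with folds of 8.74, 12.1 and 5.81. In Rcan1 (chr16:92400079-92400328, minus strand), which encodes a calcineurin inhibitor made from alternative starts, 1 AP-1 motif lies 110 bases and 1 cAMP response element 175 bases before an internal start. The Rcan1 folds were 5.34, 10.5 and 6.69, with the summit 47 bases before the start. The Lmna sequence (chr3:88503353-88503602, minus strand), from the gene for the A-type lamins of the nuclear envelope, holds neither motif. Its region had folds of 5.41, 16.003 and 7.38, a summit 244 bases before the start, and it overlapped a peak of saline library 2, as the Lmbrd1 region did. Clcn3 (chr8:60954800-60955049, minus strand), an endosomal chloride-proton exchanger, had folds of 5.83, 7.30 and 8.02, and its 250 bases hold neither motif. The Bdnf sequence (chr2:109709133-109709382, plus strand), from a neurotrophin gene with several starts, also holds neither motif; its region had folds of 4.22, 5.86 and 3.92 and a summit 99 bases before the start. No match says only that these letters are not in the 250 bases. The full 300-base windows, counted next, also take in the bases after the start. There the Lmna window holds 1 AP-1 motif, and the Lmbrd1 window holds a cAMP response element.

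Over all 70 windows at these summits, 43 held TGANTCA on either strand (61.4%, 95% Clopper-Pearson interval 49.0% to 72.8%). The same letters were present in 7.85% of all 31365 start windows on chr1 to chr19, and in 6.74% (6.03% to 7.51%) of the 4495 start windows in shorter-gene interiors that no kainic acid peak overlapped. With C or G in the centre, TGAGTCA on either strand, the shares were 55.7% (39 windows), 5.26% and 4.27%. The cAMP response element, which CREB reads and which contains no TGANTCA, was in 2 of the 70 windows (2.86%, 0.348% to 9.94%), against 1.83% of all windows and 1.07% of the interior windows without a peak. In windows with TGANTCA, the summit lay a median of 36 bases from the centre of the nearest copy, and in 30 of 43 it lay within 50 bases. A match is a description of letters and not of a bound site. The interval treats the 70 windows as independent, though some of the 64 summits lie in more than 1 window. These windows are a small, start-centred sample of the 8941 regions, and the bases under the others were not used here. The bar plot of motif shares gives these values.

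**Figure D1:**
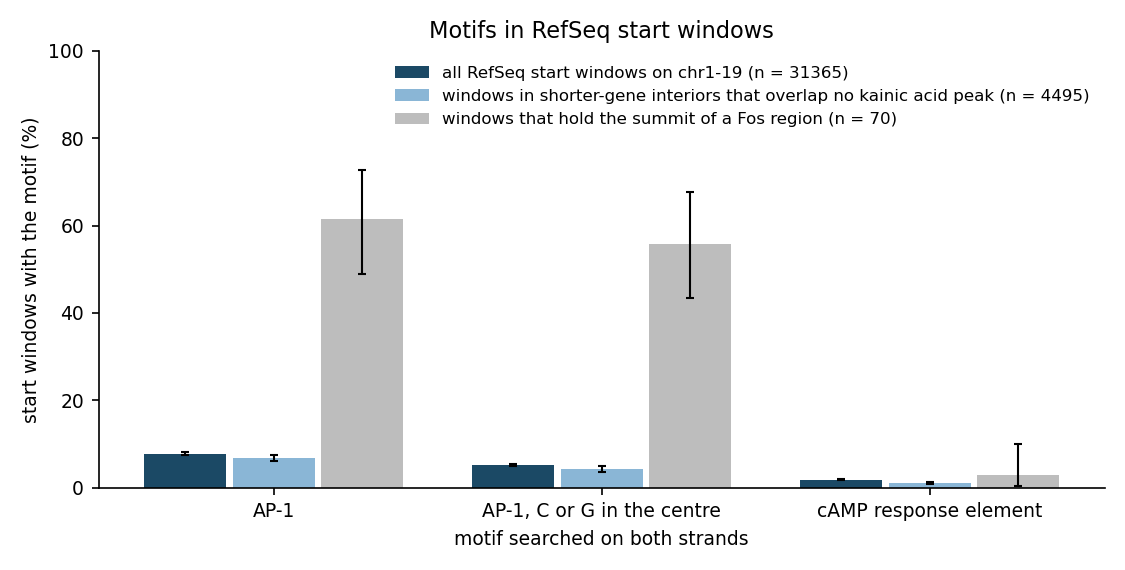
Share of RefSeq start windows (300 bases each) that hold the AP-1 motif, its form with C or G in the centre, or the cAMP response element, in percent; bars are shares and lines are 95% Clopper-Pearson intervals. The AP-1 bar of the 70 windows under a region's summit stands at 61.4%, against 7.85% of all windows and 6.74% of interior windows without a kainic acid peak.

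The depth of the libraries is seen only through the peaks. The pileup (reads over the summit) and the local background were solved from the deposited fold and p-value for 22508 of 22508 peaks of these regions. Median pileups were 22, 26 and 25 reads in kainic acid libraries 1, 2 and 3, over median backgrounds of 4.02, 3.32 and 4.87 reads. The libraries are not scaled to each other, and the list of kainic acid library 2 is the longest, with 62620 peaks on chr1 to chr19 against 14890 and 29425. Saline library 2 held 3258 such peaks, saline library 1 held 4 and saline library 3 held 0. Over all interior peaks, whether or not a second list held them, the median pileup was 22, 19 and 24 reads in the kainic acid libraries and 17 in saline library 2, where the median background was 2.83.

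Peaks inside shorter genes were present in every kainic acid library and in 1 saline library. Kainic acid libraries 1, 2 and 3 held 4761, 21463 and 10002 peaks there, and saline libraries 1, 2 and 3 held 0, 883 and 0. The groups did not overlap: the lowest kainic acid library had more peaks than the highest saline library. The same was true of all peaks on chr1 to chr19, as the totals given above show. Shorter-gene interiors held 32.0%, 34.3% and 34.0% of all peaks in the kainic acid libraries and 27.1% in saline library 2. On the scale log10(peaks + 1), the kainic acid mean was 4.00 ± 0.33 (SD, n = 3) and the saline mean 0.98 ± 1.70 (SD, n = 3), a difference of 3.02. Over all 20 assignments of the libraries, an exact permutation p (two-sided) of 0.1 resulted, which is also the lowest value that 6 libraries in 2 groups of 3 can reach. Pairing libraries by replicate number left the difference at 3.02, with an exact sign-flip p of 0.25, the smallest that 3 pairs allow. Depth and background differ between the libraries as given above, and their part in the difference was not tested.

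Shorter-gene interiors covered 546 Mb of chr1 to chr19, and the 8941 regions gave a density of 16.4 per Mb. Interiors of genes of 200 kb or longer held 6819 regions (17.2 per Mb), sequence outside genes 8805 (6.18 per Mb), and the 1 kb around gene ends 2084 (27.9 per Mb). Counted in single libraries, peak density in shorter-gene interiors was 8.73, 39.3 and 18.3 per Mb in kainic acid libraries 1, 2 and 3, and 1.62 per Mb in saline library 2. The kainic acid densities were 2.43, 2.86 and 2.75 times those of intergenic sequence, a mean log2 ratio of 1.42 ± 0.12 (SD, n = 3), higher in 3 of 3 libraries. Against gene ends the ratios were 0.700, 0.451 and 0.605, a mean log2 ratio of -0.80 ± 0.32 (SD, n = 3), lower in 3 of 3. Against long-gene interiors they were 0.850, 1.04 and 0.948, a mean log2 ratio of -0.09 ± 0.14 (SD, n = 3), which is within the spread between libraries. Two-sided exact sign-flip tests over the 3 libraries gave p = 0.25, 0.25 and 0.5, and 0.375, 0.375 and 0.5 after Benjamini-Hochberg adjustment over the 3 comparisons; the smallest p that 3 libraries allow is 0.25. Saline library 2 was distributed otherwise: 59.1% of its peaks lay at gene ends and 27.1% in shorter-gene interiors, with a density 4.29 times that of long-gene interiors. The difference in distribution between the groups was not tested, since a single saline library had enough peaks. The plot of density by position shows these values.

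**Figure D2:**
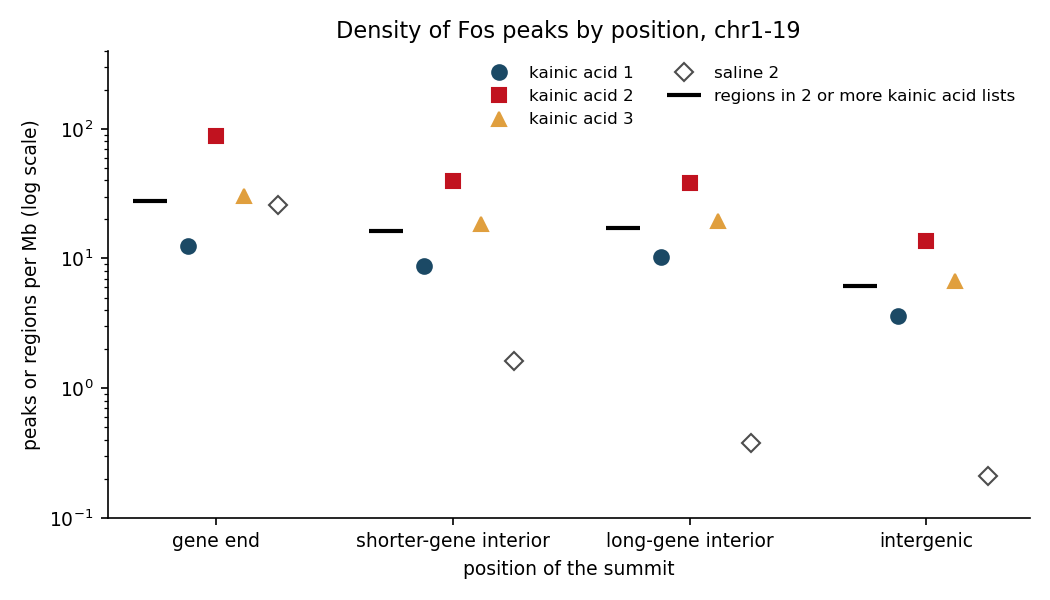
Density of Fos peaks per Mb (log axis) in 4 position classes on chr1 to chr19: filled symbols are the 3 kainic acid libraries, open diamonds saline library 2, and bars the regions found in 2 or more kainic acid lists. In each kainic acid library shorter-gene interiors lie above intergenic sequence, below gene ends and near long-gene interiors; saline library 2 falls from 25.8 per Mb at gene ends to 1.62 in shorter-gene interiors.

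The regions varied widely in strength. Of the 8941, 3801 (42.5%, 41.5% to 43.5%) had a peak in all 3 kainic acid lists, which sits near the 44.5% of all 26649 regions. A further 4581 were in lists 2 and 3 only, 500 in lists 1 and 2 only, and 59 in lists 1 and 3 only. The number of regions therefore rests on the longer lists: without library 2 it was 3866, without library 3 it was 4304 and without library 1 it was 8375. The fold ran from 2.10 to 19.4 (median 4.45) in library 1, from 2.08 to 40.8 (median 5.85) in library 2 and from 2.02 to 26.4 (median 4.17) in library 3. The median fold of regions in long-gene interiors was 4.45, 5.67 and 4.17 in the same libraries, and of intergenic regions 4.56, 6.14 and 4.31. The median width was 688 bp, with 5% under 367 bp and 5% over 1359 bp. Of the regions, 4044 (45.2%) lay within 10 kb of another, and neighbouring regions in the same gene were a median of 9.32 kb apart. The same share was not computed for other regions or for random placement, so it is no measure of clustering. By chromosome, the density ran from 13.7 per Mb on chr6 to 20.2 per Mb on chr15. These values come from the contrast that chose the regions and carry no test.

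Few of the regions were also called in saline. Of the 8941, 165 (1.85%, 1.58% to 2.15%) overlapped a peak of saline library 2, and 0 overlapped a peak of saline library 1 or 3. Over all 26649 kainic acid regions the share was 2.02%. It was 0.616% (0.444% to 0.832%) in long-gene interiors, 1.04% (0.843% to 1.28%) in intergenic sequence and 11.5% (10.2% to 12.97%) at gene ends. The interval of the regions inside shorter genes does not overlap those of the other 3 classes, but it covers counting error only and rests on 1 saline library. Read from the saline side, 155 of the 883 interior peaks of saline library 2 (17.6%, 15.1% to 20.2%) lay at one of these regions.

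Regions with a saline peak were more frequent near internal starts, a comparison added after the values were seen. Interior sequence within 1 kb of a start that RefSeq lists for a protein-coding gene made up 6.45 Mb and held 319 of the regions (3.57%), a density of 49.5 per Mb against 15.99 per Mb in the rest. Single-library density there was 21.3, 152 and 56.0 per Mb in kainic acid libraries 1, 2 and 3, which is 2.48, 4.01 and 3.13 times that of the remaining interiors (mean 3.21 ± 0.77, SD, n = 3; two-sided exact sign-flip p = 0.25, the smallest possible). In saline library 2 the ratio was 36.1. Of the 319 regions, 37 (11.6%, 8.30% to 15.6%) had a saline peak, against 128 of the other 8622 (1.48%, 1.24% to 1.76%). The saline share near internal starts lies beside the 11.5% of gene ends.

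Density also differed by position further from the starts. In 5469 genes of at least 22 kb whose strand RefSeq start windows give, density fell from 49.8 regions per Mb at 1 to 2 kb after the start to 20.8 at 2 to 5 kb, 16.4 at 5 to 10 kb and 14.7 at 10 to 20 kb. Before the gene end it was 12.6 per Mb at 1 to 2 kb, 10.4 at 2 to 5 kb, 11.4 at 5 to 10 kb and 13.5 at 10 to 20 kb. Between 1 and 10 kb, peak density after the start was 2.02, 1.91 and 1.97 times that before the end in kainic acid libraries 1, 2 and 3 (mean 1.97 ± 0.05, SD, n = 3; higher in 3 of 3; two-sided exact sign-flip p = 0.25, the smallest possible). The ratio in saline library 2 was 1.73.

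Longer genes offer more sequence, so both the share of genes with a region and the density were followed over gene length. In genes of up to 5 kb, 53 of 2193 (2.42%) held a region, and in genes of 100 to 200 kb 996 of 1345 (74.1%) did. Density was 17.0 per Mb in genes of up to 5 kb, 14.0 and 14.1 per Mb at 10 to 25 and 25 to 50 kb, and 19.2 per Mb at 100 to 200 kb. Peak density at 100 to 200 kb was 1.53, 1.27 and 1.36 times that at 25 to 50 kb in the 3 kainic acid libraries (mean 1.39 ± 0.13, SD, n = 3; two-sided exact sign-flip p = 0.25, the smallest possible). The rise depends on the class compared. In genes of up to 5 kb the peak densities were 5.56, 45.7 and 19.4 per Mb in kainic acid libraries 1, 2 and 3. At 100 to 200 kb they were 10.8, 44.6 and 21.5 per Mb, so library 2 was not higher there. Saline library 2 fell from 7.72 peaks per Mb in genes of up to 5 kb to 1.75 at 25 to 50 kb and 0.878 at 100 to 200 kb. The panels of density by length and position show the libraries side by side.

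**Figure D3:**
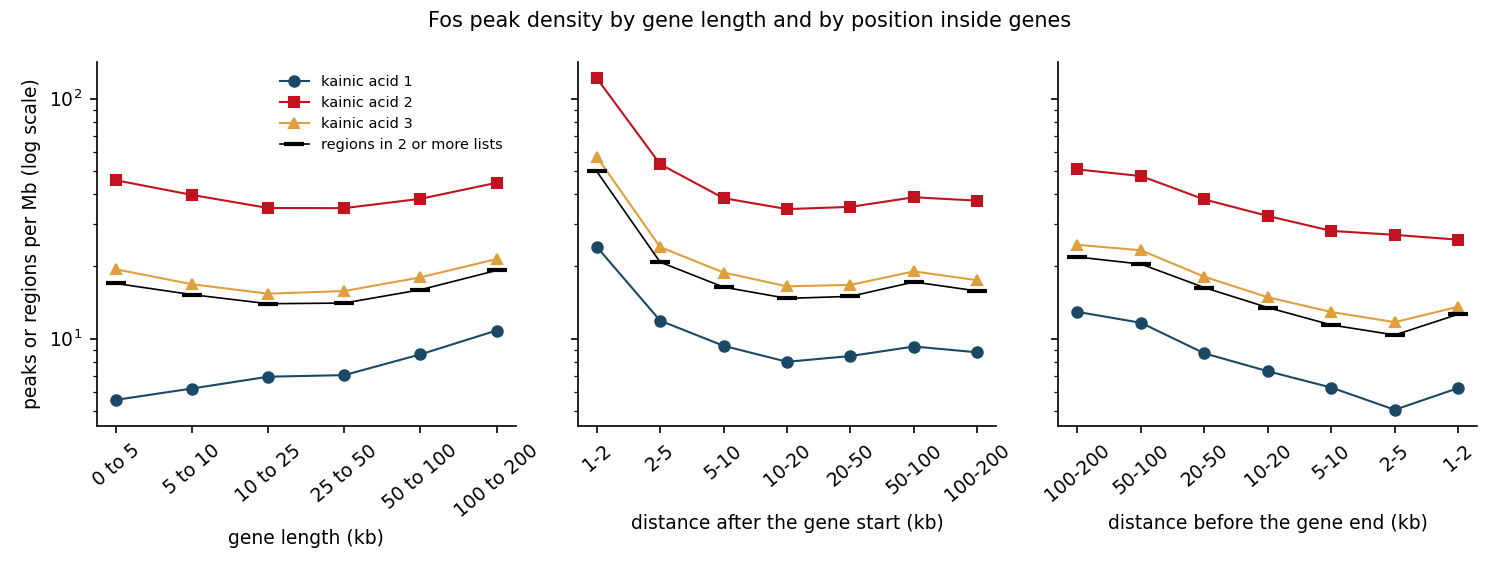
Density of Fos peaks per Mb (log axis) against gene length (left), distance after the gene start (middle) and distance before the gene end (right), in kb; coloured lines are the 3 kainic acid libraries and the black line the regions found in 2 or more lists. All 3 libraries are highest at 1 to 2 kb after the start and lowest within 10 kb of the end, and rise from genes of 25 to 50 kb to genes of 100 to 200 kb.

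Of 17251 protein-coding genes shorter than 200 kb with sequence that could hold a region, 4279 (24.8%) held at least 1. Without library 2 the share was 14.2% and without library 3 it was 15.4%. Exactly 1 region was found in 2454 genes, 5 or more in 398 genes and 10 or more in 68 genes. The 398 genes together held 2874 of the 8941 regions. Of the regions, 82 lay inside more than 1 protein-coding span.

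The genes with the most regions were Mbnl2, Tspan5 and Hivep2. Mbnl2, a muscleblind splicing regulator expressed in brain (chr14:120275652-120431698, 156 kb), held 23 regions, 13 of them in all 3 lists, from 14, 56 and 26 interior peaks in kainic acid libraries 1, 2 and 3 and 0 in saline. Its strongest region, 32.6 kb after the start, had folds of 7.02, 12.4 and 8.85. Tspan5, a tetraspanin membrane protein (chr3:138741848-138904433), held 22 regions from 15, 51 and 25 peaks, with 1 peak in saline library 2. Hivep2, a large zinc finger transcription factor (chr10:13961609-14151378), held 21 regions from 20, 42 and 23 peaks, the most even set over the libraries among these 3 genes. Garem1, an adaptor of growth factor signalling, and Zbtb16, a zinc finger repressor, each held 17. Sorl1, a sorting receptor of the amyloid precursor protein, and Sipa1l3, a Rap GTPase-activating protein, held 16 each. Ankrd33b, the plasma membrane calcium pump gene Atp2b1 and the actin oxidase gene Mical2 held 15 each. Ppm1e, Ptpre and Osbpl6 also held 15 but were less dense, and the order by density kept them out of the 10. The counts lean on the longer lists: Mbnl2, Tspan5 and Hivep2 held 13, 11 and 12 without library 2 and 14, 12 and 14 without library 3. These 10 genes measure between 76.3 kb (Ankrd33b) and 199 kb (Sipa1l3), and density per length is given next.

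Per length the order was different. Among genes with at least 5 regions, Ptprn, a dense-core vesicle protein, led with 5 regions in a 17.5 kb gene, which is 32.3 per 100 kb of eligible interior; libraries 1, 2 and 3 had 3, 6 and 6 peaks there and saline 0. Irs2, an adaptor of the insulin receptor, followed with 7 regions (31.5 per 100 kb) and Ccsap, a centriole and cilium protein, with 5 (27.4 per 100 kb). Irs2 was also the 1 gene of these 10 with 2 peaks in saline library 2, against 4, 10 and 10 in the kainic acid libraries. Ccsap rested mainly on libraries 2 and 3, with 1, 11 and 6 peaks. Next came Nr4a3, an activity-regulated orphan nuclear receptor (10 regions, 25.4 per 100 kb), and Inhba, the activin A subunit (6 regions, 23.7 per 100 kb). Rheb, the GTPase that switches on mTORC1, had 8 regions (21.3 per 100 kb), 6 of them in all 3 lists. The remaining 4 were Ankrd33b (20.2 per 100 kb), the actin regulator Cap1 (20.1), the 14-3-3 protein gene Ywhaz (19.5) and the tetraspanin gene Tspan13 (19.3). For comparison, genes with a region had a median of 3.67 per 100 kb, and the density over all eligible genes was 16.4 per Mb, a unit 10 times longer. These 10 genes were chosen for high density, which fixes the direction of the comparison. The counts of these 10 genes depend on weak peaks to unequal degrees. Nr4a3 kept 4 of its 10 regions in all 3 lists, 2 at a −log10 q of at least 5 and 0 at a −log10 q of at least 10. At the strictest of these thresholds Ankrd33b kept 8, Ptprn 3 and Rheb 2, and each of the other 7 kept 1 or 0. Without library 2 the 10 genes held between 1 (Ccsap) and 8 (Ankrd33b), and without library 3 between 1 and 9. Ankrd33b was the 1 gene found in both orders. In the maps of the regions along 6 genes, the highest fold in library 2 lay 32.6 kb after the start of Mbnl2 and 46.0 kb after that of Tspan5. In Ptprn it lay near the start, at 1.11 kb, with folds of 7.07, 14.8 and 6.50.

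**Figure D4:**
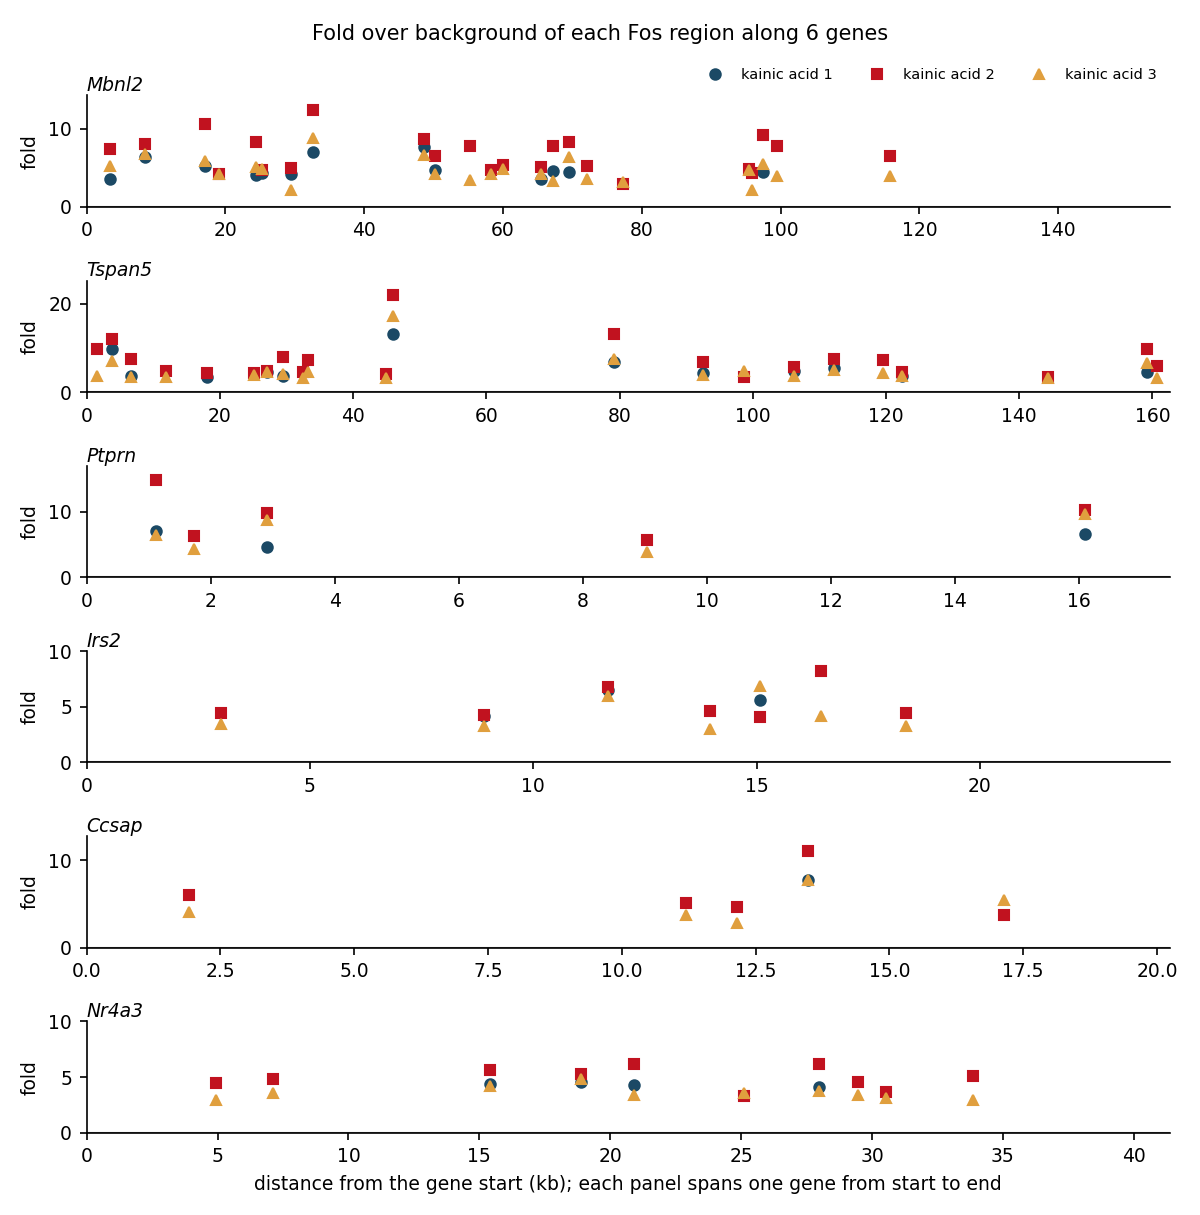
Fold over local background (vertical axis, linear) of each Fos region against its distance from the gene start in kb, for 6 genes with many or dense regions; symbols are the 3 kainic acid libraries, and a missing symbol means that no peak was called in that library. Mbnl2 carries 23 regions and Tspan5 22, of which 1 at 46.0 kb stands out with folds of 13.2, 21.9 and 17.2; Ptprn carries 5 within 17.5 kb.

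The strongest regions, ranked by the mean percentile of their fold over the 3 lists, lay in genes of varied function. One of the 10 strongest, in Klhl2, an adaptor of a cullin ubiquitin ligase (chr8:64841096-64842669), lay 8.03 kb after the start and had folds of 15.7, 31.5 and 22.5 in kainic acid libraries 1, 2 and 3, with pileups of 97, 161 and 128 reads. Another, in Pkp2, a desmosome protein (chr16:16260645-16261528), had folds of 15.8, 30.2 and 17.5. Both were highest in library 2, as was the median of the regions, and neither had a saline peak.

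Among the other strongest regions, 2 lay in synaptic genes. Rimbp2, which ties calcium channels to the presynaptic release machinery, held a region 112 kb after its start (chr5:128841324-128842487) with folds of 14.1, 28.2 and 20.9. Baiap2, an actin and membrane adaptor of dendritic spines, held one (chr11:119991039-119992275) with folds of 12.5, 39.0 and 18.97 and the highest pileup of the regions in library 2, 172 reads. The region in Serinc2, a serine incorporator family protein, lay 1.12 kb after a listed start (chr4:130269765-130271344; folds 14.2, 25.9 and 17.3). Those in Atp6v1a, the catalytic subunit of the vesicular proton pump (chr16:44122664-44125286), and in Tspan5 (chr3:138787316-138788361) had folds of 15.6, 23.2 and 13.4 and of 13.2, 21.9 and 17.2. A further one lay in Nudt13, a nudix hydrolase (chr14:20297750-20298691; 13.9, 21.8 and 14.3).

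The last of the 10 was in Npas4, an activity-regulated transcription factor of neurons (chr19:4992613-4994024), with folds of 12.7, 24.2 and 13.9 and pileups of 52, 89 and 69 reads. The RefSeq span of Npas4 runs over 19.1 kb, and the summit lay 3.18 kb before the nearest start that RefSeq windows list for the gene. It is interior by the rule, since the annotated span reaches further upstream than that start. Likewise the strongest region of Inhba lay 3.88 kb and that of Slc1a2 2.67 kb before the nearest listed start.

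Of these 10 strongest regions, 3 also had a peak in saline library 2: Rimbp2, Baiap2 and Npas4. With Iqsec3, a guanine nucleotide exchange factor of inhibitory synapses (chr6:121462649-121463591), and Gas2l1, a linker of actin and microtubules (chr11:5061862-5062749), they are the 5 strongest regions with a saline peak. Their saline folds were 6.04 (Rimbp2), 6.22 (Baiap2), 6.45 (Npas4), 5.49 (Iqsec3) and 4.67 (Gas2l1). The kainic acid folds of Iqsec3 were 10.5, 19.7 and 21.1 and of Gas2l1 10.3, 14.9 and 14.5. Each kainic acid fold of these 5 was above the region's own saline fold. The 5 were picked for high kainic acid folds, which favours that direction. Folds also belong to single libraries, and the rule used the kainic acid values, so no test was made. The highest fold of an interior peak in saline library 2 was 7.88.

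The other genes of the pathway were followed in lists of known function: activity-regulated genes first, then synaptic and channel genes, kinases, and markers of cell types. The lists were chosen with earlier results of these data known, so their values are a description and no independent support. For each list, the share of eligible genes with a region stands against 24.8% of all eligible genes, and the density of regions against 16.4 per Mb. A ratio is given beside it, the list's peak density over that of all eligible genes in each kainic acid library, as mean ± SD over 3 libraries. Saline library 2 is not in the ratios. It had 7 peaks in 471 kb of effector genes and 15 in 1024 kb of postsynaptic genes, against 1.62 per Mb in all interiors. The rapid transcription factor list had 2 in 316 kb, the presynaptic list 6 in 1070 kb and the potassium channel list 6 in 1088 kb. Each of the lists named so far was thus denser than all interiors in saline library 2 as well. The kinase and principal neuron lists had 1 peak each, and the other lists 0. Whether the ratios are particular to kainic acid was not tested. List genes differ in length, so shares are not comparable between lists. Densities allow for length, but density also varied with gene length and with distance from the start, as given above. Median gene lengths ran from 8.4 kb in the interneuron list to 62.8 kb in the postsynaptic list. The part of length and position in the differences between lists was not tested.

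Rapidly induced transcription factors had regions in 8 of 18 eligible genes, at 85.5 per Mb, with a ratio of 5.46 ± 0.86. Without library 3, 27.8% of the list's genes held a region, against 44.4% with it. Nr4a3 carried 10 of the 27 regions, from 4, 18 and 12 peaks in kainic acid libraries 1, 2 and 3, and without it the density was 61.5 per Mb. Tsc22d1, a leucine zipper transcription regulator, held 6 and Crem, a relative of CREB with an inducible repressor form, held 3, none of which was in all 3 lists. Npas4, Nr4a2 and Fosl2 held 2 each, and Fosb and Nr4a1 held 1 each. The other 10 eligible genes had none: Fos, Jun, Egr1, Egr2, Egr3, Egr4, Atf3, Klf4, Maff and Btg2 held 0. Fos itself offers only 1.38 kb that is more than 1 kb from a gene end. Junb and Ier2 are so short that no base was eligible.

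Activity-regulated effector genes, the synaptic and secreted products that follow, had regions in 15 of 27 eligible genes, at 91.2 per Mb and a ratio of 5.76 ± 1.19. Homer1, whose short inducible form loosens the postsynaptic scaffold, held 12 regions, 6 of them in all 3 lists, from 10, 23 and 14 peaks and 0 in saline. Its strongest region lay 66.2 kb after the start (chr13:93369445-93370923) with folds of 7.25, 10.8 and 9.71. Inhba held 6 and the neurotrophin gene Bdnf 5. The Bdnf region with the best rank (chr2:109710706-109712321) lay 36.6 kb into the gene and 1.87 kb after a listed internal start, with folds of 7.26, 7.77 and 7.02, the most even of the named genes in this list. Pcsk1, a prohormone convertase, also held 5. Arc, a 3.49 kb gene for a dendritic capsid-like protein, held 1, and 12 genes of the list, among them Dusp1, Nptx1 and Plk2, held 0. Without library 3, 33.3% of the list's genes held a region, against 55.6% with it.

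Postsynaptic genes had regions in 12 of 17 eligible genes, at 45.9 per Mb and a ratio of 3.07 ± 0.31. Dlgap4, a scaffold of the postsynaptic density, held 11 from 5, 29 and 11 peaks, and its strongest region had folds of 5.04, 17.8 and 9.73. Gria2, the AMPA receptor subunit that blocks calcium entry, held 10 regions, 8 of them in all 3 lists, from 11, 18 and 14 peaks and 0 in saline. Baiap2 held 7. Genes of the list with 0 regions included Cacng2, Cacng8, Nlgn2 and Shank3. The share of genes with a region, 70.6%, was 35.3% without library 2 and also without library 3. This list had 15 peaks in saline library 2, the most of the 13 lists.

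Presynaptic genes had regions in 13 of 21 eligible genes, at 43.0 per Mb and a ratio of 2.39 ± 0.12. Bsn, which encodes the active zone scaffold Bassoon, held 8 regions, with folds of 9.50, 12.7 and 7.43 in the strongest (chr9:108137308-108138473), and 4 peaks in saline library 2. Cplx2, a regulator of vesicle fusion, also held 8, of which 1 was in all 3 lists, and the vesicle protein gene Syn2 held 7. Potassium channel genes had regions in 12 of 19, at 36.8 per Mb and a ratio of 2.34 ± 0.20. Kcnj3, a subunit of the G protein-gated inward rectifier, held 11 from 6, 17 and 13 peaks; Kcnj4 and the leak channel gene Kcnk1 held 4 each, and all 4 of Kcnk1 were in all 3 lists. Genes for kinases and phosphatases of calcium and MAP kinase signalling had regions in 9 of 15, at 38.5 per Mb and a ratio of 2.23 ± 0.34, led by Map2k4 and the salt-inducible kinase gene Sik2 with 9 each.

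Markers of principal neurons had regions in 7 of 18 genes, at 43.2 per Mb and a ratio of 2.47 ± 0.02. Bcl11b, a transcription factor of granule and CA1 neurons, held 9, with folds of 9.36, 16.2 and 10.5 in the strongest (chr12:107961587-107962533). Prox1, the granule cell factor, held 4. Snap25, a SNARE protein that is also in the presynaptic list and is not specific to principal neurons, held 5. Camk2a, which held 3, is also in the postsynaptic list. Markers of inhibitory interneurons had regions in 2 of 17 genes, at 7.96 per Mb and a ratio of 0.50 ± 0.09. These were 1 in Gad1, which encodes a GABA-synthesizing enzyme (folds 5.93, 10.1 and 6.67), and 1 in Calb2 (calretinin); without library 2, and also without library 3, the share fell from 11.8% to 5.88%. The lowest ratio of the principal neuron list in any library was 2.45 and the highest of the interneuron list 0.608. The 3 libraries share the same few genes, so this is no test of cell types. The eligible interneuron genes offer only 251 kb. Of the 18 principal neuron genes, 11 held 0 regions, among them Neurod1, Calb1 and Slc17a7, and without Bcl11b the density was 33.3 per Mb.

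Glial and vascular marker lists lay nearer to or under the background. Astrocyte markers had regions in 6 of 15 genes (21.5 per Mb; ratio 1.31 ± 0.14), with 2 each in the glutamate transporter gene Slc1a2 and in Aldh1l1, and 1 in the water channel gene Aqp4. Markers of the oligodendrocyte lineage had regions in 2 of 15, at 30.0 per Mb, but 11 of the 12 regions lay in the myelin basic protein gene Mbp. Mbp had 2, 25 and 13 peaks in kainic acid libraries 1, 2 and 3, and without it the density of the list was 3.43 per Mb; the ratio with it was 1.56 ± 0.89 and ran from 0.575 to 2.32 over the libraries. Mog held the remaining region, and the share of genes with a region, 13.3%, was 6.67% without library 2 and also without library 3. Microglia markers had 1 region, in the integrin gene Itgam, over 13 genes (5.15 per Mb; ratio 0.51 ± 0.20). Markers of brain endothelium had regions in 7 of 14 genes, at 11.1 per Mb and a ratio of 0.71 ± 0.14, with 3 each in Vwf and Emcn and 1 in Slc2a1; without library 2 the share was 21.4%, against 50.0%. Liver genes had regions in 5 of 19, at 14.2 per Mb and a ratio of 0.86 ± 0.41. Among these regions were 1 each in Tdo2, F2 and Apob. Expression of the liver list in hippocampus was not measured here, so it is not a list of genes known to be silent there. The highest ratio of the liver list, 1.30 in library 1, passed the 1.23 of the astrocyte list in that library.

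**Figure D5:**
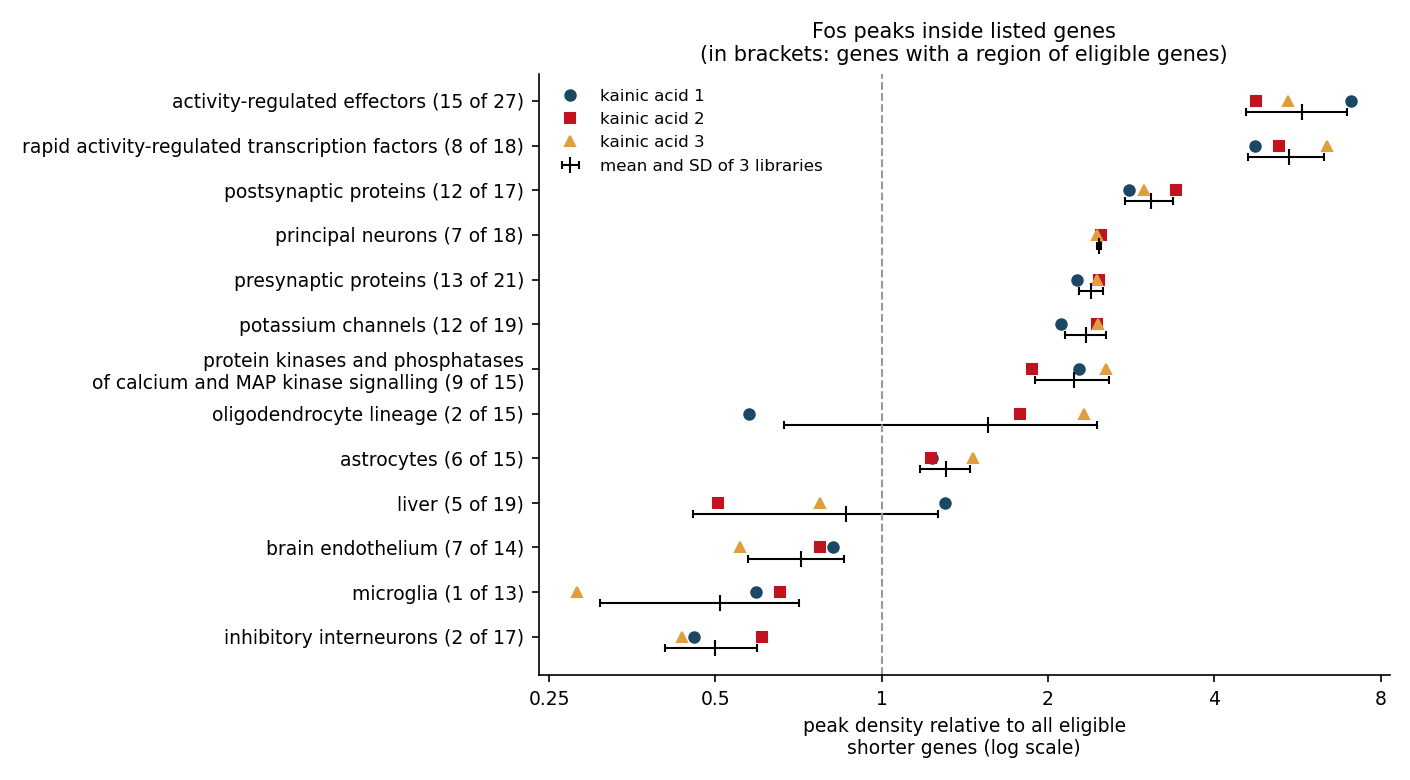
Peak density inside the eligible genes of each list, divided by that of all eligible shorter genes (log axis, dashed line at 1); symbols are the 3 kainic acid libraries, vertical ticks with bars their mean and SD, and the numbers in brackets count genes with a region. Activity-regulated effectors (5.76) and rapid transcription factors (5.46) lie highest, interneuron (0.50) and microglia (0.51) markers lowest, and the libraries run from 0.575 to 2.32 in the oligodendrocyte list and from 0.505 to 1.30 in the liver list. The lists were chosen with earlier results of these data known.

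The values on either side of each limit of the rule are given as a description. Just under the length limit, Sergef (199.738 kb) held 5 regions and Atp9b (199.941 kb) 6; just over it, Plcxd3 (200.095 kb) held 1 and Pcbp3 (200.264 kb) 5. The regions nearest to a gene end that were kept lay 1001 bp (in Fndc4; folds 8.41 and 4.73 in libraries 2 and 3) and 1002 bp away (in Hdhd5; 5.56, 8.42 and 3.77). The nearest left out lay 999 bp away, in Cnrip1 (7.74 and 4.14 in libraries 2 and 3) and in Elavl4 (5.82 and 4.52). By the number of lists, 13730 interior regions were in a single list and were left out, with median folds of 3.79, 3.91 and 3.40 in libraries 1, 2 and 3. The 5140 in 2 lists had medians of 3.84, 5.02 and 3.75, and the 3801 in all 3 lists 4.56, 7.64 and 5.08.

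The regions also overlapped 8 microRNA hairpins listed by RefSeq, in 7 regions, leaving out chr18. The share of all interior hairpins is not given here, so the count cannot be read as high or low. Mir34b and Mir34c, processed from 1 transcript and known as p53-responsive, were both inside the region chr9:51102862-51103723, in the spans of Btg4 and Hoatz, which had folds of 6.71 and 5.36 in libraries 2 and 3 and no peak in library 1.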

How the data were processed

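Fos ChIP-seq was measured in 3 kainic acid and 3 saline libraries of mouse hippocampus; the 1 input library has no peak list used here. Per the submitters' processing notes, the tools were Trim Galore 0.6.4, Bowtie2 2.3.4.3, MACS2 (version not given in the sources used here) and deepTools 3.5.0, with build mm10 (GRCm38). Peak names show that the authors kept a mapping quality of 30, and each library was called on its own, not pooled. Each of the 6 deposited lists has 10 columns: the authors' peak fold is a linear ratio to local background, the authors' p- and q-values are given as −log10, and the deposited summit is an offset from the peak start. The deposited score was not used. The deposited values are not scaled between libraries, so ranks of fold were taken inside 1 list. Where folds of different libraries stand side by side, this is a description only. The members and gene lists were chosen with earlier results of these data known.

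Peaks were merged at 1 bp of overlap. Gene spans and start windows were those of RefSeq for GRCm38.p6; all 247 of the 247 list genes matched. Sequence was split into gene ends (within 1 kb), shorter-gene interiors, long-gene interiors and intergenic. Taking the fold as (k + 1)/(λ + 1), with k the reads over the summit and λ the background, both were obtained from the fold and the Poisson p-value, within 0.001. Shares carry 95% Clopper-Pearson intervals (counting error only). Libraries were compared with exact permutation or sign-flip tests. Named genes were the 10 with most regions (ties by density), the 10 densest with at least 5, the 10 strongest regions, the 5 strongest with a saline peak, the 3 leading genes of each list and the values nearest each limit. A few genes that these rules name are not reported here. Python 3.11.15, numpy 2.4.6, pandas 2.3.3 and scipy 1.17.1 were used, and the code was tested on simulated data. Alternatives changed the lists required, the q threshold, the overlap, the list length, the gene limits, the annotation and the libraries.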

Additional observations from a re-analysis of the deposited data

How the results depend on the processing

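Of 1085 recomputed values, 769 stayed within the limit set for their kind (1.5 times for counts, the interval or spread of the value for shares and ratios, the direction alone for tested differences), 315 moved further and 1 reversed. The intervals of list shares are wide: 17 of the 154 list shares inside them were over 1.5 times lower, such as 20% of astrocyte genes with the same number of peaks from each list, against 40%. The reversed value is the log2 ratio of peak density to long-gene interiors, which was 0.035 with a 300 kb limit (p = 0.75, exact sign-flip); that limit also gave a region density 1.05 times that of long-gene interiors, against 0.955, and 26.2% of genes with a region. Ratios to intergenic sequence and to gene ends kept their direction under the alternatives run. Requiring all 3 lists left 3801 regions (6.97 per Mb, 2.39 times intergenic density, 14.2% of genes, 35.3% of postsynaptic and 21.4% of endothelial genes). A −log10 q of at least 5 gave 19.6% of genes, a median fold percentile of 25.99 and 0.653% of regions with a saline peak. A −log10 q of at least 10 left 2599 regions (4.76 per Mb, 2.41 times intergenic density, 10.96% of genes, median percentile 10.97), 0% with a saline peak. At that threshold 16.7% of rapid transcription factor genes, 33.3% of effector, 41.2% of postsynaptic, 38.1% of presynaptic, 16.7% of principal neuron, 6.67% of astrocyte, 0% of microglia and 21.4% of endothelial genes held a region. Summits within 200 bp gave 23.5% of genes. The same number of peaks from each list left 4265 regions (7.82 per Mb, 15.7% of genes, median percentile 23.8, 2.46% with a saline peak, 0% of microglia genes). A 100 kb limit left 5468 regions (20.7% of genes, 0.840 times long-gene and 2.42 times intergenic density, 2.43% with a saline peak). Over 2.5 kb from gene ends, 1.37% had a saline peak, and with all annotated genes 18.8% of genes held a region. Leaving out 1 library gave 3866 to 8375 regions (7.09 to 15.4 per Mb), 2.38 to 2.67 times intergenic density, 14.2% to 23.8% of genes, 0% to 1.96% with a saline peak, 27.8% to 44.4% of rapid transcription factor, 33.3% to 55.6% of effector, 35.3% to 70.6% of postsynaptic and 21.4% to 42.9% of endothelial genes. The replicate block left the group difference at 3.02 (exact sign-flip p = 0.25) and changed no call. For the 62 named genes, 263 of 782 recomputed counts moved, all 263 to fewer regions. The cause of these moves was not tested, beyond the fewer peaks or libraries that each alternative allows. Library 1 has the shortest kainic acid list, so a region missing there is one that was not called, not one shown to be unbound.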
